A study of Mus musculus with 4 samples.

Results

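The genes described here are those that differed between the refed livers of control mice and of mice with both cytochrome b5 genes targeted, with the weight on functions other than sterol, fatty acid, glutathione and cytochrome P450 metabolism. The authors' deposited refed table lists 284 genes, and the 252 of them with at least 1 TPM (a share of all transcript, corrected for transcript length) in either refed library were taken as members. The 2 deposited tables, 1 for each feeding state, hold 943 genes between them. The table itself holds only genes the authors selected on the same contrast, so the refed differences of the members are a description and were not tested. Closest to the threshold were Tpx2, inside it at 1.01 TPM in the targeted refed library, and Tube1, outside it at 0.92 TPM.

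Liver RNA was sequenced from 4 groups with 1 library each. The control groups carry the labels WT and shNC, the targeted groups the label L_Cyb5b_shCyb5a, and each was sampled Fasted and Refed. The sources used here do not give age, sex, strain, the allele, the vector, the length of fasting and refeeding, or whether a library came from 1 mouse or from a pool. Cyb5a had 1274 TPM in the control refed and 166 TPM in the targeted refed library, and 1686 and 207 TPM in their fasted counterparts. Cyb5b stood at 174 and 49.5 TPM in the refed and at 72.4 and 27.4 TPM in the fasted pair, so both targeted genes were lower under the label that names them in each state. None of the 17 hepatocyte markers examined is in either table, so the tissue label was not checked with them.

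Cyb5a and Cyb5b encode membrane-anchored electron donors, the first mainly on the endoplasmic reticulum and the second on the outer membrane of mitochondria. Refeeding after a fast raises insulin, and liver then turns from making glucose to storing it and to making lipid. Food also sets the phase of the liver clock and the release of hormones by the liver. Genes of cell division are low in a resting liver and are used when it grows or regenerates. Besides hepatocytes, liver RNA holds transcripts of sinusoidal endothelial cells, of Kupffer cells (its resident macrophages) and of other immune cells. In such bulk RNA, fewer cells of a type and less RNA per cell cannot be told apart.

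Among the 252 members, 196 were higher in the targeted refed library (77.8%) and 56 were lower (22.2%). Of them, 189 were at least 2-fold higher (75%) and 54 at least 2-fold lower (21.4%), and over all 284 genes of the table these 4 shares were 78.2%, 21.8%, 75.7% and 21.1%. The set-aside sterol, fatty acid, glutathione and P450 classes hold 51 members, 32 higher and 19 lower. Outside them and the 2 targeted genes stood 199 members, 164 higher and 35 lower. Classes were set by gene lists and symbols. Gm3776, which lies between Gsta1 and Gsta2 on chromosome 9, and the acyltransferase gene Gpat3 are therefore counted among the 199. Of the 199, 65 are on a list of function or cell type, 36 belong to a symbol family only, 13 have predicted gene or clone names and 85 are other named genes. Read numbers could be recovered for 231 members, as whole reads for 182, as the whole part of fractional reads for 44 and with 0 reads in a library for 5. Their medians were 77 reads in the control and 124 in the targeted refed library, and 17 members had fewer than 10 reads in a library. The range in parentheses after a fold is the 95% counting interval of that ratio, which says nothing of the spread between mice.

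**Figure D1:**
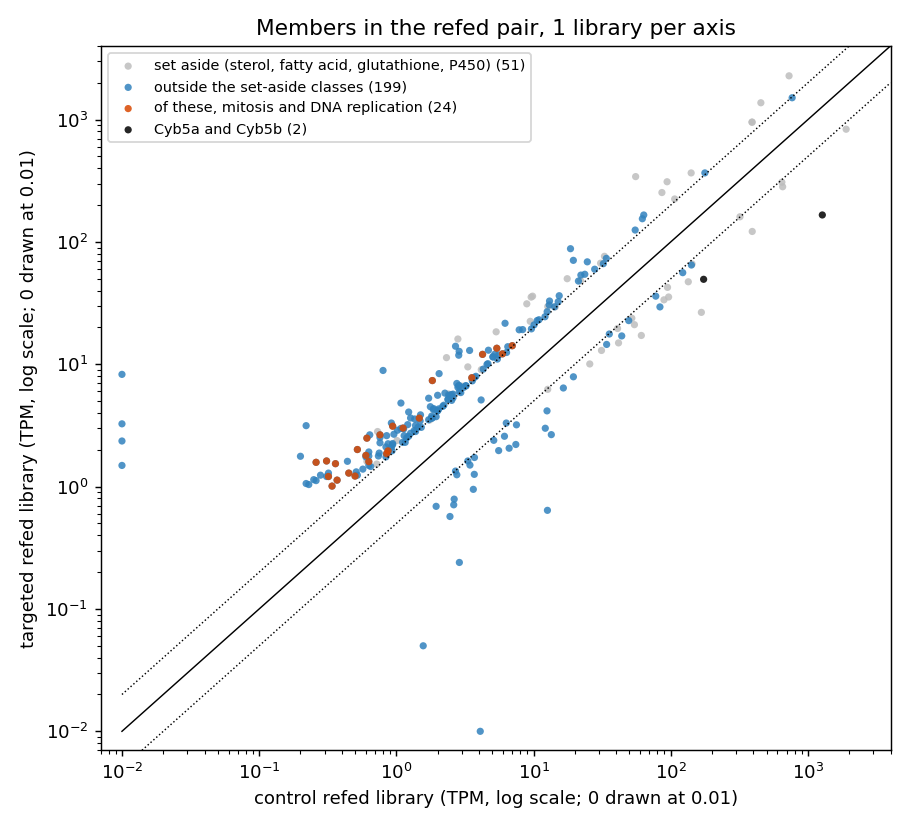
Level of each member in the control refed library (horizontal, TPM on a log scale) and the targeted refed library (vertical, TPM on a log scale), 1 point per gene. The solid line marks equal levels and the dotted lines 2-fold differences. Genes above the solid line are the 196 higher ones, with Hamp the most abundant outside the set-aside classes, and the mitosis genes in orange lie at low levels, from 1.01 to 14.2 TPM in the targeted library.

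The fasted pair shares no library with the refed pair and was not used to choose the members. There 142 members were higher in the targeted library (56.3%) and 108 lower (42.9%), with 42 at least 2-fold higher (16.7%) and 33 at least 2-fold lower (13.1%). Over all 284 genes the fasted shares were 54.9%, 43.7%, 18% and 14.1%. By FPKM (a level per transcript length and library depth) in place of TPM the fasted split was 114 higher and 134 lower, because the factor from FPKM to TPM is 1.504 in the targeted fasted and 1.304 in the control fasted library. That moves every fasted log2 ratio by 0.21, while the same step moves the refed ratios by 0.026. Of the 199 members outside the set-aside classes, 106 had the same direction in both states and 91 the opposite one by TPM. FPKM turned that balance. By FPKM, the 164 higher in the refed pair were 66 higher and 94 lower when fasted. The 35 lower ones were 12 higher and 23 lower when fasted. Over all members, FPKM gave 40 at least 2-fold the same and 35 at least 2-fold opposite, in place of 49 and 26 by TPM. At least 2-fold by TPM, 28 of the 199 had the same and 25 the opposite direction, against 19 and 1 of the 51 set-aside members. Across the 4 libraries, 100 of the 252 members were highest in the targeted refed one (39.7%) and 138 were lowest in the control refed one (54.8%), against 41.9% and 54.2% of all 284 genes.

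**Figure D2:**
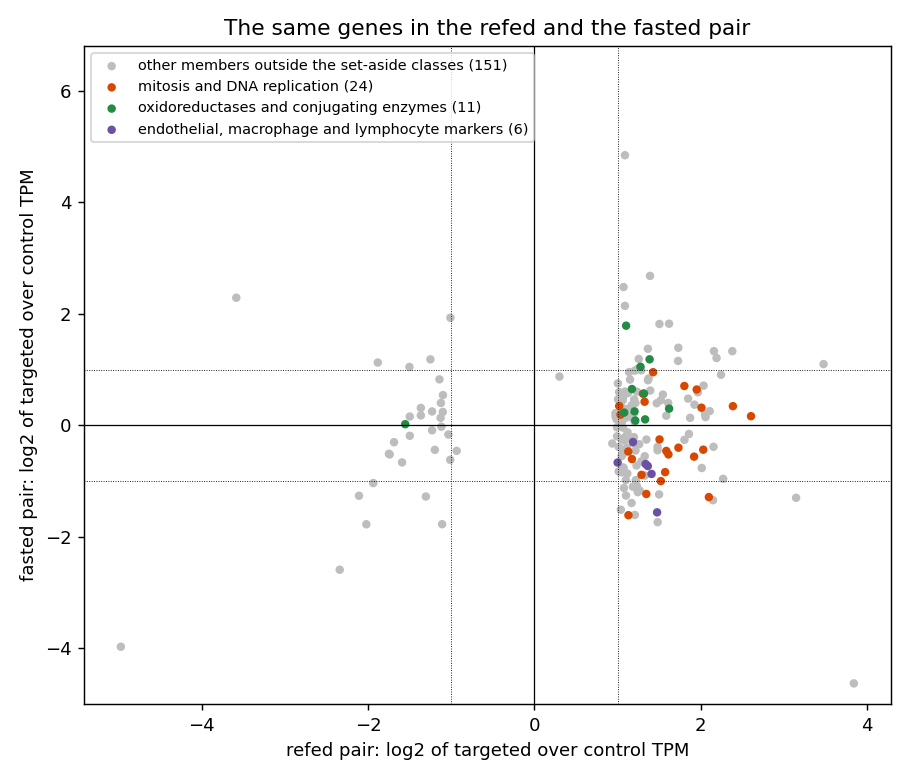
Log2 ratio of targeted over control TPM in the refed pair (horizontal) and in the fasted pair (vertical) for 192 members outside the set-aside classes, 1 point per gene. The 7 members listed at 0 in a library are not drawn, and dotted lines mark 2-fold. The mitosis genes lie on the right and on both sides of 0 in the fasted pair, the oxidoreductases and conjugating enzymes lie at or above 0 in the fasted pair, and the 6 cell markers lie below it.

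Genes of mitosis and DNA replication made up the longest list among the members outside the set-aside classes. Of its 113 genes, 27 are in the refed table and 24 are members, and each of the 24 had at least 2-fold the control level after food. Their median log2 ratio was 1.55, beside 1.17 over all members, of which 77.8% were higher. Nothing is read from these refed values, since the table was selected on the same contrast and 16 of the 24 reached 1 TPM only in the targeted refed library, with 8 at or above it in the control refed one. Summed over the 24 genes, the level was 74.8 TPM in the control fasted, 78.7 in the targeted fasted, 39.3 in the control refed and 102 in the targeted refed library. Gene by gene, 9 of the 24 were lowest in the control refed library, beside 54.8% of all members. In recovered reads the 24 genes had 956 reads in the control refed and 2401 in the targeted refed library.

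Cell division is driven by cyclins and their kinases, and many genes of its last phases share 2 promoter elements, the CHR element and the CCAAT box. Of the 24 members, 18 have a window from 250 bases before to 50 after the gene start in RefSeq (GRCm38.p6). The CHR element (TTTGAA, either strand) is in 12 of the 18 windows (66.7%), against 18.1% of all 27025 windows of the same length and 20.5% of the 195 members with a window. The CCAAT box (CCAAT, either strand) is in 15 of the 18 (83.3%), against 37.9% of all windows and 54.4% of the members. The windows of Ccnb2, Cdk1 and Cdc20, whose products carry cells into and out of mitosis, are shown on the gene's strand with both elements in capitals. They lie on the minus strand at chr9:70421505-70421804, chr10:69352863-69353162 and chr4:118437294-118437593 of that build. The sources used here do not give the authors' build. A match of letters is not a site shown to be bound.
Ccnb2: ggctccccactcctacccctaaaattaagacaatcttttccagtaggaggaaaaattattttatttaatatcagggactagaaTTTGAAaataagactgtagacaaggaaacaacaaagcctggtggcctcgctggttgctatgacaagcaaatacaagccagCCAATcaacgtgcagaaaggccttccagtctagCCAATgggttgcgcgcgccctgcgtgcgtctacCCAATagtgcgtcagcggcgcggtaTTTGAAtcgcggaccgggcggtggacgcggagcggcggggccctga
Cdk1: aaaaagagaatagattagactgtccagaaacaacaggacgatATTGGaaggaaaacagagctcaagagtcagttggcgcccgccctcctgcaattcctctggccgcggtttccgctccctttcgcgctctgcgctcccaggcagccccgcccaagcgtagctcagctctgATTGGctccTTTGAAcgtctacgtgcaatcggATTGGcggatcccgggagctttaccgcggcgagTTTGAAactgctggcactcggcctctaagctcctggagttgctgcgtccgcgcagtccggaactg
Cdc20: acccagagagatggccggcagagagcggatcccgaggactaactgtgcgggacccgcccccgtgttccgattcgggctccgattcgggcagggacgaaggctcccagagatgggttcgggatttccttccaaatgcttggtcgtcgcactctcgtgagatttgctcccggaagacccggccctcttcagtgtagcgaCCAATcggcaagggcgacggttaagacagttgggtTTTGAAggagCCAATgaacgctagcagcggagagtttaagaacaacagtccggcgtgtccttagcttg

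Cyclin genes and their partners came first by role. Ccnb2, a mitotic cyclin, stood at 1.11 TPM in the control fasted, 0.82 in the targeted fasted, 0.61 in the control refed and 2.49 in the targeted refed library, a refed ratio of 4.08-fold (2.01 to 9.14). Ccnb1, its relative, stood at 0.44, 0.32, 0.60 and 1.80 TPM in the same order, 3.0-fold higher (1.67 to 5.66) in the refed pair. Cdk1, the kinase they activate, stood at 0.79, 0.55, 0.37 and 1.13 TPM, 3.05-fold higher (1.81 to 5.35). In these 3 genes the targeted library was the lower one when fasted and the higher one when refed. Ccna2, the S phase and mitotic cyclin, was 2.25-fold higher (1.5 to 3.46). Ccnd1, the cyclin that takes cells out of rest, was the most abundant after food, with 7.0 TPM in the control and 14.2 in the targeted library, 2.03-fold higher (1.77 to 2.32). Cks1b, a small subunit of cyclin-dependent kinases, stood at 3.85, 5.16, 5.40 and 13.5 TPM.

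Genes of the spindle, the kinetochore and chromosome structure were higher as well. Spc25, a subunit of the NDC80 kinetochore complex, stood at 17.6 TPM in the control fasted, 21.9 in the targeted fasted, 1.83 in the control refed and 7.36 in the targeted refed library, 4.02-fold higher (2.64 to 6.33) in the refed pair. Its fasted levels exceeded both refed levels. Cdc20, an activator of the anaphase-promoting complex, was 3.49-fold higher (1.93 to 6.67) and Cenpa, the centromere histone, 2.19-fold (1.57 to 3.07). Stmn1, which destabilises microtubules, stood at 15.1, 12.7, 4.25 and 12.1 TPM in the order above. Top2a, the topoisomerase that untangles chromosomes, stood at 1.08, 0.46, 0.63 and 1.60 TPM, and Mki67, the gene of the proliferation antigen Ki-67, at 0.87, 0.47, 0.50 and 1.22 TPM. Both are also in the fasted table, as lower genes. Among replication genes, Mcm5 of the replicative helicase was 2.19-fold higher (1.45 to 3.36) and Tk1, the thymidine kinase, 2.05-fold (1.56 to 2.71).

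In the fasted pair 10 of the 24 genes were higher and 14 lower by TPM (8 and 15 by FPKM), with none at least 2-fold higher and 4 at least 2-fold lower. A further 6 chromosome genes were grouped after their values were seen and were all higher, beside 77.8% of all members. Chosen that way, they add no separate result. Among them were Incenp of the chromosomal passenger complex at 2.34-fold (1.56 to 3.58) and Rbl1, a retinoblastoma relative, at 2.29-fold (1.64 to 3.23). Lig1, a DNA ligase, was at 2.51-fold (1.64 to 3.94). Another 3 mitosis genes of the table stayed below the TPM threshold. At these levels most genes rest on few reads, such as Ckap2 with 8 and 48 or Cdk1 with 20 and 60, and the cell type they come from was not measured.

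**Figure D3:**
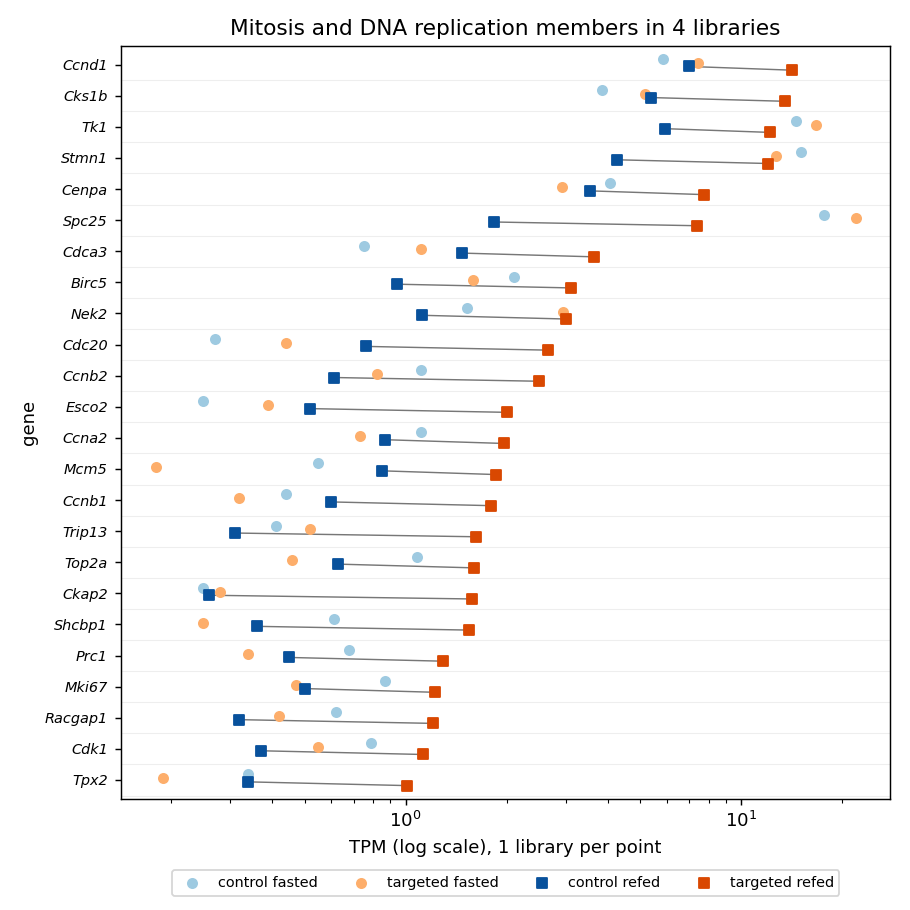
Level of the 24 mitosis and DNA replication members in the 4 libraries (TPM on a log scale, 1 library per point), ordered by the targeted refed level. The grey line joins the 2 refed libraries, and in every gene the targeted refed point lies at least 2-fold to the right of the control refed point.

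Glucose handling went in both directions. Of the 54 genes on the list of glucose uptake, glycolysis and glycogen, 5 are members, 3 lower and 2 higher. Of all members, 22.2% were lower and 77.8% higher. G6pdx, the first enzyme of the pentose phosphate pathway and a source of NADPH, stood at 4.16 TPM in the control fasted, 3.91 in the targeted fasted, 34.1 in the control refed and 14.5 in the targeted refed library, 2.35-fold lower (2.08 to 2.65) in the refed pair. It was higher after food than fasted in both genotypes. In the fasted pair its log2 ratio was -0.09, and the gap lay between the refed libraries. Slc2a4, the glucose transporter GLUT4 best known from muscle and fat, reached only 2.46 TPM, in the control refed library.

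The 2 higher genes of the list were Slc2a1 and Ppp1r3g, and Slc5a1 was added to them after its values were seen. Slc2a1, the glucose transporter GLUT1, stood at 3.66, 7.09, 2.59 and 5.70 TPM in the order control fasted, targeted fasted, control refed and targeted refed, 2.20-fold higher (1.67 to 2.91) in the refed pair. Slc5a1, the sodium-glucose cotransporter SGLT1, stood at 0.72, 0.79, 0.44 and 1.61 TPM. Ppp1r3g, which brings protein phosphatase 1 to glycogen, stood at 79.9, 31.5, 0.28 and 1.24 TPM, on 7 and 32 reads in the refed pair. Its targeted level was the lower one when fasted and the higher one when refed, and both refed levels were far below the fasted ones.

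Secreted hormones and growth factors and a set of receptors and signalling genes, both grouped after their values were seen, went both ways, with 6 of 9 and 3 of 8 higher, beside 77.8% of all members. Angptl8, a secreted regulator of lipoprotein lipase that liver makes after a meal, stood at 7.82 TPM in the control fasted, 10.3 in the targeted fasted, 122 in the control refed and 56.1 in the targeted refed library, 2.18-fold lower (1.94 to 2.45) in the refed pair. Enho, the gene of the peptide adropin, stood at 11.6, 9.71, 6.20 and 21.6 TPM in the same order, 3.49-fold higher (2.70 to 4.55), and was highest in the targeted refed library. Lepr, the leptin receptor, stood at 71.7, 65.7, 2.38 and 5.17 TPM, so both refed libraries were far below both fasted ones. Tsku, a secreted protein of liver, stood at 78.8, 86.5, 12.6 and 26.9 TPM and was likewise low after food. Prok1, the gene of prokineticin 1, was 2.21-fold lower (1.62 to 3.05). Among growth factors, Btc (betacellulin) was 2.12-fold higher (1.5 to 3.05), Hbegf, another ligand of the EGF receptor, 4.82-fold (1.97 to 14.2) on 6 control reads, and Ihh, a hedgehog ligand, 2.57-fold (1.57 to 4.36). Il22ra1, the receptor subunit for interleukin 22, was 2.87-fold higher (2.25 to 3.67).

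Signalling genes were among the lower ones. Of the 5 lower genes in the receptor and signalling set, 4 were highest in the control refed library. So were 23 of the 35 lower members outside the set-aside classes. Chrna4, a subunit of nicotinic acetylcholine receptors, had 0.41 TPM in the control fasted and 0.12 in the targeted fasted library, against 77.8 (control) and 36.0 TPM (targeted) after food, 2.16-fold lower (2.04 to 2.28). Rgs16, which shortens G protein signals, stood at 26.7, 55.1, 83.5 and 29.4 TPM in the order control fasted, targeted fasted, control refed and targeted refed, 2.83-fold lower (2.61 to 3.08). The targeted level of Rgs16 was thus the higher one when fasted and the lower one when refed. Hcn3, an ion channel gene, was 2.58-fold lower (2.24 to 2.98) and Adgrf1, an adhesion G protein-coupled receptor, 2.35-fold lower (1.96 to 2.82).

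A pair of nuclear receptors of the circadian clock were higher in the targeted refed library. They are the only members among the 23 genes of the clock list. Nr1d1 (REV-ERB alpha), a repressor in the clock loop that also acts on metabolic genes, stood at 7.25 TPM in the control fasted, 9.37 in the targeted fasted, 3.42 in the control refed and 13 in the targeted refed library, 3.79-fold higher (3.07 to 4.72) in the refed pair. Nr1d2 (REV-ERB beta) stood at 51.6, 39.5, 2.87 and 12.8 TPM in the same order, 4.45-fold higher (3.75 to 5.30). In both genes the control refed library was the lowest of 4. The time of day of sampling is not among the labels. The E-box (CACGTG), which clock activators bind, is in neither gene's 300-base window and in 7.24% of all windows.

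Enzymes of taurine and haem synthesis stood at opposite ends. Csad, cysteine sulfinate decarboxylase of the taurine pathway, stood at 114 TPM in the control fasted, 213 in the targeted fasted, 18.6 in the control refed and 88.0 in the targeted refed library, 4.73-fold higher (4.30 to 5.21). It is the only member among the 59 genes of amino acid, urea and one-carbon metabolism, and the targeted level was higher in both states. Alas1, the rate-limiting enzyme of haem synthesis in liver, stood at 356, 402, 44.0 and 17.1 TPM in that order, 2.58-fold lower (2.33 to 2.85) after food, with no 2-fold difference in the fasted pair. Sdhaf3, an assembly factor of succinate dehydrogenase, was lower in both states, with 14.4 and 5.96 TPM in control and targeted fasted and 19.5 and 7.90 TPM in the refed libraries.

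**Figure D4:**
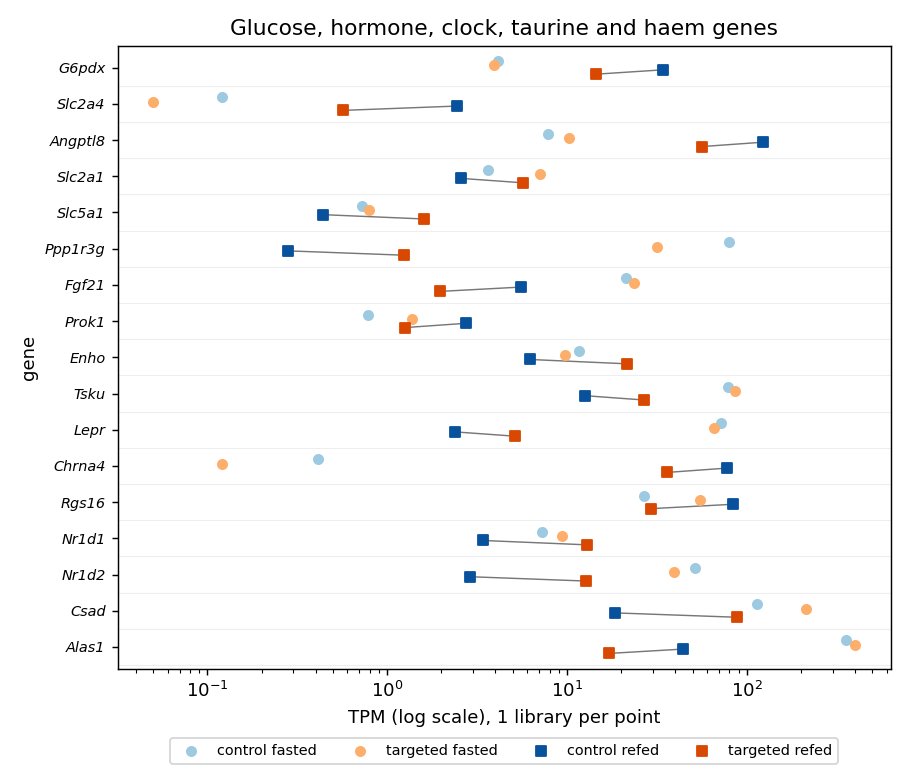
Level of 17 genes of glucose handling, hormones, signalling, the clock, taurine and haem synthesis in the 4 libraries (TPM on a log scale, 1 library per point). The grey line joins the 2 refed libraries. G6pdx, Angptl8, Chrna4 and Rgs16 are lower in the targeted refed library, and Nr1d1, Nr1d2, Csad and Enho are higher.

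Of the 37 genes of the iron and acute phase list, 6 are members, 5 higher and 1 lower, beside 77.8% of all members higher. Hamp, the gene of hepcidin, the hormone that closes the iron exporter, stood at 1390 TPM in the control fasted, 1554 in the targeted fasted, 768 in the control refed and 1508 in the targeted refed library, 1.96-fold higher (1.83 to 2.11) in the refed pair. The other 3 libraries lay within 1390 to 1554 TPM, and the control refed library alone was low. Slc40a1, that iron exporter (ferroportin), stood at 81.7, 82.2, 32.3 and 66.4 TPM, with the same library lowest. Scara5, a receptor that takes up ferritin, was lower in both states, at 13.6 and 3.97 TPM in control and targeted fasted and 12.2 and 3.0 TPM in the refed libraries.

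Among acute phase proteins, Saa2, a serum amyloid A, stood at 112, 76.3, 177 and 367 TPM in the order control fasted, targeted fasted, control refed and targeted refed, 2.07-fold higher (1.89 to 2.26). Saa3, its relative, stood at 52.2, 21.8, 27.9 and 59.8 TPM, and Orm2, an orosomucoid, at 127, 96.1, 33.9 and 73.4 TPM. All 3 were higher in the targeted library after food and lower there when fasted. Saa2 and Saa3 lie close together on chromosome 7 and are similar in sequence, so their single values are uncertain. C4a, a complement C4 gene, was 3.01-fold lower (2.63 to 3.47) and is the only member of the complement and coagulation list of 50 genes.

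Other genes of metal transport were higher. Slc39a4, the zinc importer ZIP4, stood at 17.7 TPM in the control fasted, 35.6 in the targeted fasted, 15.4 in the control refed and 36.3 in the targeted refed library, so the targeted level was the higher one in both states. Mt2, a metallothionein that binds zinc and copper, stood at 810, 381, 13 and 30.5 TPM in the same order. Its targeted level was lower when fasted and higher when refed. Steap2, a metalloreductase, was 1.98-fold higher (1.57 to 2.52). The pathway column of the authors' deposited table places 5 higher members under mineral absorption, namely Slc39a4, Mt2, Slc40a1, Slc5a1 and Steap2. It places 8 higher members under cell cycle and 5 under cytokine-cytokine receptor interaction, and 77.8% of all members were higher.

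Interferon-inducible genes followed. Of the 73 genes of the interferon list 4 are members, and their refed ratios were all above 1, beside 77.8% of all members. In either table are 11 of the listed genes, 8 of them in the fasted one. All 11 were higher when refed, and 2 were higher and 9 lower when fasted. Lower fasted together with higher refed levels were seen in 49.3% of all 943 genes and in 54.7% of the 722 genes of the fasted table. Rsad2 (viperin, an antiviral enzyme) stood at 3.98 TPM in the control fasted, 5.94 in the targeted fasted, 4.58 in the control refed and 9.98 in the targeted refed library, 2.18-fold higher (1.85 to 2.58). Cmpk2, its neighbour on chromosome 12 and a nucleotide kinase, stood at 2.80, 3.15, 4.65 and 10.1 TPM, 2.17-fold higher (1.82 to 2.61). Ifi27l2a and Ifi27l2b, another pair of neighbours on that chromosome, were 2.27-fold (1.83 to 2.82) and 2.79-fold higher (2.38 to 3.28). In the fasted pair Ifi27l2a was lower, at 63.8 and 29.8 TPM in control and targeted libraries, and it is in the fasted table. Being similar in sequence, the Ifi27l2 genes may share reads.

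The interferon response element core (GAAA, any 2 bases and GAAA, either strand) is in the window of Rsad2, at chr12:26456403-26456702 on the minus strand of GRCm38.p6, which is shown with the match in capitals. It is in 1 of the 2 listed members with a window and in 3.49% of all windows.
Rsad2: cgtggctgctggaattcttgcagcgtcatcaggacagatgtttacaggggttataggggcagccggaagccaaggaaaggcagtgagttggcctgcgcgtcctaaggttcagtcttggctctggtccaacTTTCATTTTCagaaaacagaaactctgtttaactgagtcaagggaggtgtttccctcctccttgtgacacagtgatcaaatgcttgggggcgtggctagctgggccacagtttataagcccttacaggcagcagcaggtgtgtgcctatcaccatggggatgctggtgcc

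For several cell types other than hepatocytes, the markers found in either table had lower fasted and higher refed levels in the targeted libraries. Of the endothelial list 25 of 33 genes are in either table, each with these directions and none at 0. Both directions together were seen in 49.3% of all 943 genes and in 54.7% of the 722 genes of the fasted table. Of the 25, 24 are in the fasted table, which the authors made for the fasted contrast, so fasted directions of its genes are a description. These shares stand beside the lists that follow too. The summed level of the endothelial genes was 397 TPM in the control fasted, 194 in the targeted fasted, 139 in the control refed and 210 in the targeted refed library. Of the Kupffer cell and macrophage list 12 of 33 genes are in either table, with the same directions in all 12, none at 0, and sums of 298, 164, 124 and 220 TPM. The 7 of 50 lymphocyte markers, none at 0, had the same directions too, and their sums were 37.9, 14.1, 12.8 and 22.7 TPM. The neutrophil list (2 of 19 genes) and the blood cell list (4 of 18) did as well, while 3 of 31 cholangiocyte markers were higher when refed and 2 of them lower when fasted. The 8 of 63 stellate cell and matrix markers were all lower when fasted, but 5 were higher and 3 lower when refed, and their sums were 69.8, 30.6, 55.7 and 57.3 TPM. Of 32 muscle genes 2 are in either table, 1 higher and 1 lower when refed. Most of these genes are in the fasted table alone, and 2 endothelial, 3 macrophage and 1 lymphocyte marker are members. Listed markers in neither table, such as Adgre1, Clec4f and Csf1r of the macrophage list, could not be examined. Each sum thus covers only a part of its list. The part of these cells in the higher mitosis, interferon and acute phase levels was not tested.

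The member markers had low levels. Marco, a scavenger receptor of Kupffer cells, stood at 23.8, 8.08, 4.69 and 13 TPM in the order control fasted, targeted fasted, control refed and targeted refed, 2.78-fold higher (2.21 to 3.52) in the refed pair. Clec7a (dectin-1, a fungal sugar receptor) was 2.27-fold higher (1.83 to 2.83) and Cd163, the haemoglobin scavenger receptor, 2.0-fold (1.56 to 2.59). Lyve1, a hyaluronan receptor of sinusoidal endothelium, stood at 13.3, 8.03, 2.26 and 5.81 TPM, and Clec14a, another endothelial gene, at 5.69, 3.11, 1.21 and 3.21 TPM. Jchain, the joining chain of secreted antibodies, was 2.53-fold higher (1.89 to 3.41). Tnfsf10, the gene of the death ligand TRAIL, was 2.54-fold higher (2.03 to 3.20) and Il1rn, the interleukin 1 receptor antagonist, 2.08-fold (1.48 to 2.96).

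**Figure D5:**
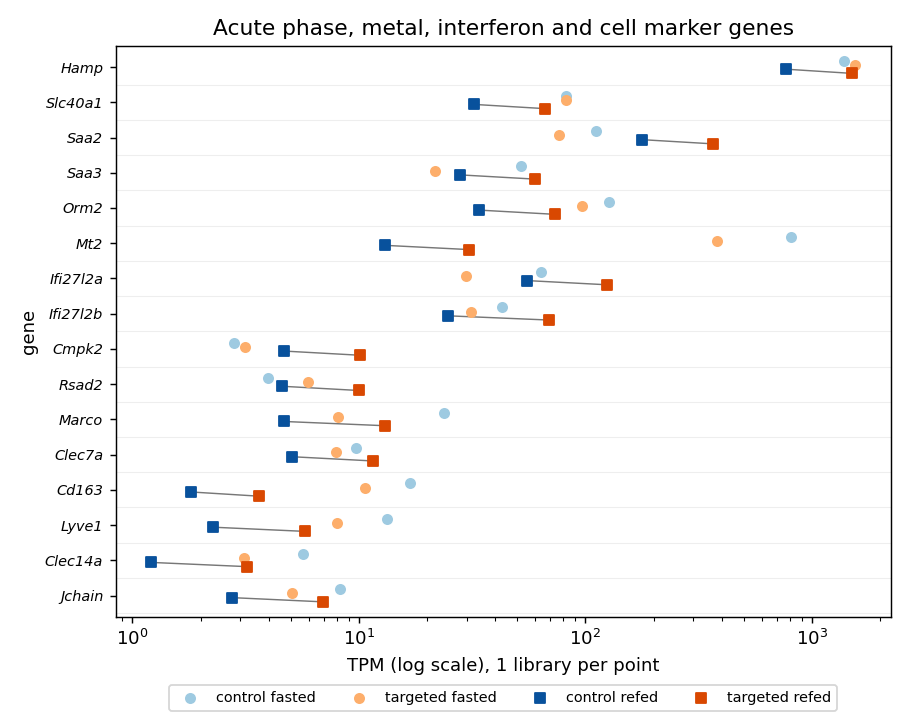
Level of 16 acute phase, metal, interferon and cell marker genes in the 4 libraries (TPM on a log scale, 1 library per point). The grey line joins the 2 refed libraries, and in all 16 genes the targeted refed point lies to the right of the control refed one. Among the fasted points the 6 cell markers at the bottom are all lower in the targeted library.

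Enzymes that oxidise, reduce or conjugate, other than the P450 and glutathione genes, were a group put together after its values were seen. Of the 11, 10 were higher in the targeted refed library, beside 77.8% of all members, and Ces2b, a carboxylesterase, was lower. In the fasted pair all 11 were higher by TPM, but only 8 by FPKM. Hsd17b6, a hydroxysteroid dehydrogenase, stood at 119 TPM in the control fasted, 177 in the targeted fasted, 62.1 in the control refed and 155 in the targeted refed library, 2.49-fold higher (2.32 to 2.68) in the refed pair. Ugt2b35, a glucuronosyl transferase, stood at 53.5, 121, 63.6 and 166 TPM, and Aox1, the aldehyde oxidase, at 10.6, 36.6, 15.1 and 32.5 TPM. By TPM both genes were at least 2-fold higher in the targeted library in each state, but by FPKM the fasted log2 ratio of Ugt2b35 was 0.98. Rdh9, a retinol dehydrogenase relative and close neighbour of Hsd17b6 on chromosome 10, was 2.51-fold higher (2.24 to 2.82). Akr1c19, an aldo-keto reductase, was 2.25-fold (1.95 to 2.61), Aldh3b1, an aldehyde dehydrogenase, 3.07-fold (1.78 to 5.56) and Ces1b, a carboxylesterase, 2.30-fold higher (2.07 to 2.56). Several belong to families of similar genes, whose single values are uncertain.

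Of 8 solute carriers, 6 were higher and 2 lower, beside 77.8% of all members higher, and the 8 include Slc2a1, Slc2a4, Slc5a1, Slc39a4 and Slc40a1 described above. Slc25a25, the mitochondrial carrier of ATP-Mg and phosphate, stood at 190, 124, 35.7 and 17.7 TPM in the order control fasted, targeted fasted, control refed and targeted refed, 2.02-fold lower (1.84 to 2.22). Slc8b1, the mitochondrial sodium-calcium exchanger, was 2.07-fold higher (1.86 to 2.32). Slc15a2, a peptide transporter, stood at 9.86, 2.96, 0.96 and 2.68 TPM, lower in the targeted library when fasted and higher when refed. Sort1, the sorting receptor sortilin, was 2.35-fold higher (2.02 to 2.74), and Ppm1k, the phosphatase that activates branched-chain amino acid breakdown, 2.14-fold (1.92 to 2.40).

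Of 14 transcription regulators, grouped after their values were seen, 12 were above control, beside 77.8% of all members. Onecut1 (HNF6), a hepatocyte transcription factor, stood at 1.71 TPM in the control fasted, 3.88 in the targeted fasted, 6.14 in the control refed and 2.58 in the targeted refed library, so its direction differed between the states. Foxq1, a forkhead factor, stood at 3.87, 1.96, 10.6 and 22.8 TPM in that order, with the opposite pattern. Gatad1, a chromatin-associated zinc finger protein, was lower in both states, at 23.8 and 3.96 TPM in control and targeted fasted and 13.5 and 2.66 TPM in the refed libraries. All 4 cell death genes, grouped after their values were seen, were higher, beside 77.8% of all members. Of them Bik, a pro-apoptotic BCL2 relative, was 4.16-fold (2.78 to 6.4) and Bmf, of the same class, 2.92-fold higher (1.95 to 4.45). The list of p53 and apoptosis, of 24 genes, has 1 member, which was 1.91-fold higher.

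Position in the genome was shared by some members. Of the 252, 248 match a RefSeq protein-coding gene by ID (assembly GRCm38.p6), and 82 of them fall into 33 runs in which each member lies within 10 genes of the next. The longest run holds 7 members on chromosome 2, Zfp966, Gm2026, 2210418O10Rik, Zfp967, Gm14296, Zfp970 and Gm14322, of which 2 were higher and 5 lower. It held Zfp970, at 49.4 TPM in the control and 22.8 in the targeted refed library with no such gap in the fasted pair (46.5 and 45.7 TPM). Its neighbour 2210418O10Rik was listed at 0 in the control refed library with 0 reads and at 8.27 TPM with 385 reads in the targeted one, at least 128-fold higher against a floor of 3 reads per library. Zfp966 had a log2 ratio of 0.30 by TPM but 1.03 in the authors' deposited table. Genes of such clusters are similar in sequence, and the sources used here do not give how shared reads were counted.

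A run of 3 zinc finger genes on chromosome 4, Zfp992, Zfp991 and Zfp984, was higher throughout. On chromosome 14 the homeobox genes Cphx1 and Cphx2 lie within 5 genes of each other, with Tmem254c between them, and went in opposite directions. Cphx1 stood at 4.94 TPM in the control fasted, 0.20 in the targeted fasted, 0.22 in the control refed and 3.15 in the targeted refed library, while Cphx2 stood at 0.50, 2.44, 2.88 and 0.24 TPM. In each library 1 of the pair was at 0.50 TPM or below. Reads shared between such related genes would make their single values uncertain. Other runs held Xlr4a and Xlr3a on chromosome X, both higher, Tk1 and Birc5 on chromosome 11, both higher, and Angptl8 and Rab3d, a small GTPase gene, on chromosome 9, of which the first was lower and the second 2.0-fold higher (1.60 to 2.52). Cyb5b itself has 1 other member within 10 genes on chromosome 8, Nqo1 of the set-aside classes, which was higher.

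Among further members, those with the same direction and at least 2-fold in both states included Adam11, a membrane protein of the ADAM family, at 1.93, 4.85, 1.08 and 4.82 TPM in the order control fasted, targeted fasted, control refed and targeted refed. Phospho1, a phosphatase of phosphocholine, stood at 3.69, 9.55, 1.5 and 3.86 TPM and Odf3b at 2.78, 9.82, 1.72 and 5.28 TPM. In these 3 genes both targeted libraries lay above the control library of the same state. Zyg11a, at 1.07, 4.07, 2.70 and 1.34 TPM, went the other way after food. Lgals4, a galectin, was at 87.0 and 44.0 TPM in control and targeted fasted and at 2.88 and 6.70 TPM in the refed libraries, with the direction turned between states. Ndrg1, a gene of stress and differentiation, stood at 11.2, 6.30, 9.65 and 19.5 TPM and turned in the same way. None of the 15 heat shock genes listed is in the refed table, and of 31 genes of the integrated stress and unfolded protein response 2 are members, Derl3, of the degradation of misfolded proteins, at 2.31-fold higher (1.56 to 3.47), and Fgf21, lower.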

How the data were processed

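The 2 gene tables give, per the file headers, TPM and FPKM for all 4 libraries, the authors' log2 ratio of targeted over control and the authors' p-value. The sources used here do not give the aligner, genome build or counting method. The smallest absolute deposited log2 ratio in the refed table is 1 and the largest deposited p-value 1.46e-04, so a gene not listed was not analysed here. The total reads of a library are not in the tables. The deposited p-values match a comparison of reads of 2 single libraries, were not used as tests, and served with the log2 ratio to recover read numbers, fractional ones by their whole part (targeted library 1.01 times the control). Solving recovered 250 of 250 genes in simulated data. Of the members, 21 had a p-value too small to solve and have no interval.

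Log2 ratios were recomputed from TPM without a pseudocount (Python 3.11.15, pandas 2.3.3, NumPy 2.4.6, SciPy 1.17.1, matplotlib 3.10.9). Each group has 1 library, so no test exists, and differences compare libraries. Counting intervals are Clopper-Pearson at 95% on the reads of 1 library a side, so they cover counting error only. PCR copies are not separate molecules, which the intervals do not take into account. Members, lists and motifs were chosen with earlier results of these data known. Named genes (84) are those with the largest log2 ratio after adding 1 TPM, the largest TPM difference, up to 4 per list or family, and the largest same and opposite fasted ratios. Others named were chosen after their values were seen. Promoter windows are the first listed per gene. Alternatives were FPKM, the authors' log2 ratio, pseudocounts of 1 and 0.1 TPM, no filter and a minimum of 5 TPM. The values of 1 member of the glucose list are not reported here.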

Additional observations from a re-analysis of the deposited data

Results flagged for a closer look

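The 21 genes given next, outside the set-aside classes, differed at least 2-fold in opposite directions in the fasted and the refed pair, with at least 1 TPM in a library of each. The difference between the pairs was not tested, as each group has 1 library. Values are log2 ratios of targeted over control TPM in the fasted pair. Of the genes higher in the targeted refed library, the fasted ratio was -4.63 for Cphx1, -1.74 for Slc15a2, -1.61 for Cav2, -1.56 for Marco and -1.51 for Cdc42ep2. It was -1.39 for Clec2h, -1.34 for Ppp1r3g, -1.30 for Xlr4a, -1.26 for Saa3, -1.24 for Podxl and -1.23 for Top2a. It was -1.20 for Gng2, -1.17 for Arl4c, -1.12 for Sla, -1.10 for Ifi27l2a and -1.09 for Mt2. Of the genes lower in the targeted refed library, the fasted ratio was 2.29 for Cphx2, 1.93 for Zyg11a, 1.18 for Onecut1, 1.13 for Gm2026 and 1.05 for Rgs16. By FPKM each fasted ratio is lower by about 0.21, which takes Rgs16, Onecut1 and Gm2026 below 2-fold.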

How the results depend on the processing

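Counts depended on how low levels were treated. With at least 5 TPM in place of 1 in either refed library, 103 members were higher in place of 196, 99 at least 2-fold higher in place of 189, 93 had the same direction in the fasted pair in place of 142, and 9 were at least 2-fold opposite there in place of 26, since fewer genes enter. With 1 TPM added to both libraries, 81 were at least 2-fold higher, 13 at least 2-fold opposite in the fasted pair, and the median log2 ratio of all members was 0.87 in place of 1.17. The median of the 4 Tmem genes turned from -0.06 to 0.034 there, 20 other group medians moved by over 0.1, and that of the mitosis genes was 0.92 in place of 1.55. FPKM moved none of the 84 named genes outside its counting interval, or by over 0.1 where it has none, and none of the 35 group medians by over 0.1. With the authors' log2 ratio 5 named genes moved, with 0.1 TPM added 4, and with 1 TPM added 22, none with a change of direction. No paired analysis was possible because each group has 1 library, and for the same reason no library could be left out. Depth limits the genes with few reads, and transcripts under the table's threshold were not analysed here.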
